A study of Drosophila melanogaster with 87 samples.

Results

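The Cpr genes of Drosophila encode cuticular proteins that carry the Rebers-Riddiford consensus, a chitin-binding sequence, and each is named for its cytological position. Members were taken as every gene of the deposited count table whose symbol starts with Cpr followed by a digit, which gave 70 of 17562 genes. They were followed over whole heads and dissected brains, knockdown of Mettl3 or Ythdc, heat stress and m6A immunoprecipitation (m6A-IP). Insect cuticle is chitin embedded in protein, and epidermal cells secrete it over the outside of the body and around the tracheal tubes. Different Cpr genes serve different cuticles. A head holds the epidermis of the head capsule, mouthparts and antennae and the corneal lenses of the eye. A dissected brain can keep trachea and fragments of surrounding tissue, and the brain libraries here also held RNA of photoreceptors, as described below. Cpr72Ec and Cpr66D are components of the corneal lens, together with Crys (Drosocrystallin).

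The study asked how the m6A methyltransferase Mettl3 shapes the response of the brain to heat stress. Males were collected 1 to 2 days after eclosion, and in every group the ubiquitous driver DaGal4 expressed an RNAi transgene, against mCherry in Control RNAi flies, against Mettl3 in Mettl3 RNAi flies, and against the nuclear m6A reader Ythdc (gene Ythdc1) in Ythdc RNAi flies. The 1 to 2 days come from the sample labels, while the study states that males in all its heat shock experiments were 6 days old. Flies were left untreated (basal), heat shocked for 30 min at 38.5 °C (HS), or heat shocked and returned to normal temperature for 6 or 24 h. Each head library came from a pool of 200 heads. Fragmented polyadenylated RNA was sequenced before (input) and after m6A-IP, with 2 pools per group in the experiment with the Synaptic Systems antibody (SYS) and 3 pools per group in that with the New England Biolabs antibody (NEB). Dissected brains were pooled and sequenced with another library kit and on another instrument, so that tissue, kit and sequencer cannot be told apart between heads and brains. Control and Mettl3 RNAi brains had 6 libraries each in the basal and HS groups and 3 in each recovery group, except 2 for Control RNAi at 6 h. The Ythdc experiment had 3 brain libraries per group with its own Control RNAi libraries. RNAi was expressed in all tissues of these flies, cuticle-forming epidermis included, and each knockdown rests on a single RNAi line. In pooled tissue, fewer cells of a type and less RNA per cell cannot be told apart.

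A feature that the choice of members did not use is the DNA just before their start. In the 30 bases that lie 40 to 11 bases before the RefSeq gene start, the place of a TATA box, the letters TATAAA stood on the gene's strand for 34 of 70 members (48.6%) and for 1124 of 13925 protein-coding RefSeq genes (8.1%). Counting either strand gave 35 members (50.0%) and 1294 genes (9.3%). The windows below come from the RefSeq annotation of Release 6 (dm6) and are written 5′ to 3′ on the gene's strand with TATAAA in capitals. They are those of some of the members that the results turn on, all on arms 3L, 3R or X. Members on other arms, among them Cpr49Ae, Cpr47Ef, Cpr47Ee, Cpr49Ag, Cpr51A and Cpr50Cb, also carry results, but their windows are not shown.
Cpr100A, 3R:30867481-30867510, plus strand: ggttcccgctcggacTATAAAaagcttggg
Cpr97Eb, 3R:27091141-27091170, minus strand: aatgttgactgcggTATAAAaagcgttgca
Cpr62Bc, 3L:1842095-1842124, minus strand: tcgggcgttgtcttgtaTATAAAagcggct
Cpr64Aa, 3L:4209189-4209218, minus strand: tgaggccTATAAAaagcaattgtcgtgcgg
Cpr72Ec, 3L:16367351-16367380, minus strand: cgcaggtggTATAAAacacccaacgaggag
Cpr66D, 3L:8640399-8640428, plus strand: tgtcgtttgccgaTATAAAagtgcaatttg
Cpr11B, X:12553084-12553113, plus strand: atggcggggcTATAAAatcaaatcgctcca
Cpr97Ea, 3R:27087789-27087818, minus strand: ggtgcagtggccgaccagtttttcagctga
Cpr65Au, 3L:6132120-6132149, minus strand: atcgcatcgcagctcagtaaagtgcagcta
Cpr67B, 3L:9404757-9404786, plus strand: aaaaagttagtatataagcagtgccttttg
Cpr73D, 3L:16957700-16957729, minus strand: atgatggagctaattagtgtgaaatagtcc
The neighbours Cpr97Ea and Cpr97Eb differ in this window, since only the second holds the motif. These matches describe letters and not a bound site.

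Counts assigned to genes came to between 12164686 and 17710227 per head input library, between 19356178 and 47569033 per brain library of the Mettl3 experiment, and between 33931604 and 65901563 per brain library of the Ythdc experiment. The targeted genes were low where the labels say so. Mettl3 lay between 4.76 and 5.71 TMM-scaled counts-per-million (CPM) in Control RNAi basal heads and between 1.17 and 2.69 in Mettl3 RNAi heads, and in basal brains between 2.36 and 3.26 and between 0.658 and 1.19. Ythdc1 lay at 137 CPM or more in basal brains of its Control RNAi libraries and at 40.0 or less in Ythdc RNAi brains. All 8 neuronal markers were lower in heads than in brains, 10 of 12 muscle markers were higher, and of 14 retina markers 9 were lower in heads. The photoreceptor opsin ninaE reached between 12824 and 21141 CPM in Control RNAi basal brains, so the brain libraries held RNA of photoreceptors.

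Some libraries stood apart for the genes described here. Head inputs of the SYS experiment held far more RNA of many Cpr genes than those of the NEB experiment. Among basal brains, Mettl3 RNAi libraries 1 and 3 and Control RNAi library 4 were high. Cpr100A lay at 41.6 and 41.3 CPM in Mettl3 RNAi libraries 1 and 3 and between 1.48 and 4.20 in the other 4. In Control RNAi it lay at 9.79 in library 4 and between 1.02 and 2.05 in the other 5. Genes of cuticle formation that are no members were high in the same libraries. The chitin synthase kkv lay at 15.7 and 13.0 CPM in Mettl3 RNAi libraries 1 and 3 and between 0.237 and 1.09 in the other 4. The chitin deacetylase serp lay at 36.9 and 28.1 CPM against between 1.5 and 3.36, and Crys at 44.9 and 60.4 against between 0.605 and 4.09. Over the trachea and epidermis markers, the summed level was 459 and 413.8 CPM in these 2 libraries, between 158 and 187.8 in the other 4 and between 149 and 229 in the 6 Control RNAi libraries. The part that carried-over head tissue plays in the results on brains was not tested. Where leaving out these libraries changed a call on basal brains, the change is given beside it.

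**Figure D1:**
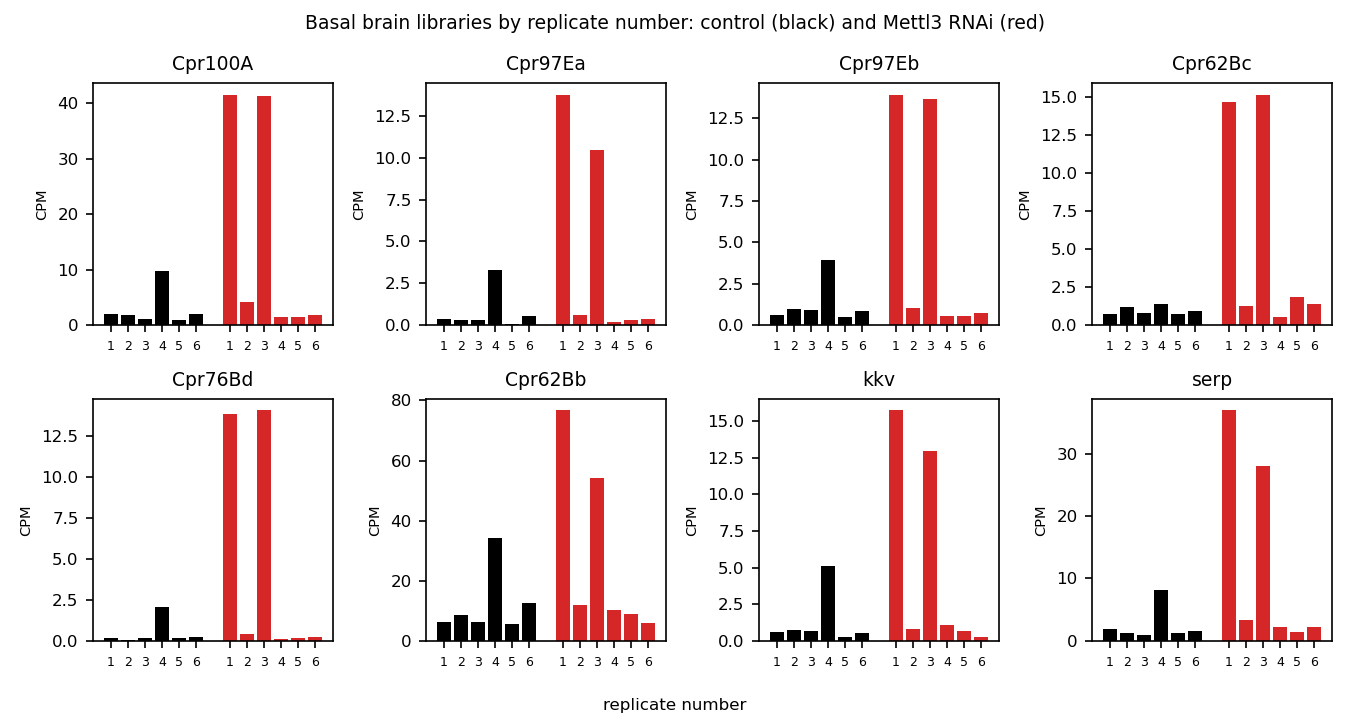
Levels in the basal brain libraries, in CPM from 0, for 6 Cpr genes and the cuticle genes kkv and serp, with 1 bar per library numbered by replicate, black for Control RNAi and red for Mettl3 RNAi. Mettl3 RNAi libraries 1 and 3 stand above the other libraries in all 8 panels, with Cpr100A at 41.6 and 41.3 CPM, and Control RNAi library 4 is the highest of its group in each.

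By position, 35 of the 70 members lay on chromosome arm 3L, 21 on 2R, 5 each on 2L and 3R, and 4 on X, and many stood in clusters. The cluster at 49A held 8 members, that at 47E held 7 and that at 65A held 7. Clustered genes were not used alike in the head: 5 of 8 members at 49A reached 1 CPM on average in Control RNAi basal heads, but 3 of 7 at 47E, 1 of 7 at 65A (Cpr65Au), 1 of 3 at 72E (Cpr72Ec) and none of the 3 each at 65E, 67F and 78C. The 2 members at 97E and the 3 at 62B all reached it. In dm6, Cpr72Ec lies at 3L:16365894-16367340 (minus strand, 1 exon), Cpr67B at 3L:9404797-9406174 (plus strand, 2 exons), Cpr49Ae at 2R:12402216-12405108 (plus strand, 3 exons), Cpr47Ef at 2R:11266915-11272575 (minus strand, 17 exons) and Cpr100A at 3R:30867521-30869184 (plus strand, 3 exons), and counts cover the exons of each. In total 29 members reached 1 CPM and 17 reached 10 CPM in Control RNAi basal heads, 11 reached 1 CPM in Control RNAi basal brains, 33 stayed below 0.5 CPM in every group, and 2 had no count in any of the 87 libraries. These head means run over NEB and SYS pools together. Some members reached a threshold only through the SYS pools, such as Cpr11A, Cpr49Ac and Cpr64Aa at 1 CPM and Cpr50Cb at 10 CPM. The proteins of Cpr65Ax1 and Cpr65Ax2 are identical over 102 residues and those of Cpr67Fa1 and Cpr67Fa2 match at 97.8% of positions in the RefSeq annotation, so reads of either pair are uncertain. Exons of Cpr47Ea, Cpr57A, Cpr65Au, Cpr67Fb and Cpr73D overlap another gene (Or47a, Obp57d, asRNA:CR46005, asRNA:CR45171 and Ogdh), and how strand was used in the counting is not given in the sources used here, so their counts could hold reads of the partner.

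Most Cpr genes that could be tested were higher in heads than in brains. In Control RNAi basal samples, 28 of 70 members passed the filter on low counts, 27 were higher in heads and 1, Cpr64Ad, was lower (edgeR quasi-likelihood test, Benjamini-Hochberg adjusted p under 0.05). Of all 10167 genes tested 70.7% were called, 37.4% as higher and 33.3% as lower. The median log2 difference was 4.68 over the members tested and 0.04 over all genes tested. A member can pass the filter through heads alone and then had to differ, so the count and the median are descriptions of the members tested. SYS and NEB pools were fitted together as heads, without a term for the experiment, although they differ widely for some members. The same comparison called 26 of 30 members higher in HS Control RNAi samples (73.1% of all genes called, 39.5% as higher), 26 of 30 higher and 1 lower in basal Mettl3 RNAi (65.2%, 34.3% and 30.9% by direction), and 26 of 29 higher in HS Mettl3 RNAi (72.4%, 37.9% as higher). Scaling by library totals moved the median of all genes by 0.56 on the log2 scale in the basal Control RNAi comparison and left the members called at 28. Without brain library 4 that comparison called 27 members, since Cpr49Af no longer passed the filter. Without brain libraries 1 and 3, the basal Mettl3 RNAi comparison called 29 instead of 27, with Cpr49Ah lost and Cpr62Bb, Cpr76Bd and Cpr97Ea gained.

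Members fell into a group that was abundant in all heads and nearly absent in brains. Cpr65Au lay at 181, 170 and 158 CPM in NEB heads and 132 and 91.3 in SYS heads, against a lowest, median and highest of 1.55, 2.08 and 3.15 in brains (log2 difference 6.04, SE 0.25, adjusted p = 5.4e-09, edgeR). Cpr47Ee lay at 74.5, 84.2 and 76.4 CPM in NEB heads and 87.8 and 70.8 in SYS heads, against 0.15, 0.456 and 0.694 in brains (7.52, SE 0.28, adjusted p = 2.8e-09). Both genes were higher in every head library than in any brain library, and their 2 head experiments lay within 2-fold of each other. Cpr76Bc showed the same pattern at a log2 difference of 6.21 (SE 0.32, adjusted p = 2.37e-08), with heads between 28.5 and 48.6 CPM and brains between 0.139 and 0.839.

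The next group was high in SYS heads, lower in NEB heads and low in brains. Cpr100A lay at 670 and 683 CPM in SYS heads, at 45.9, 63.6 and 46.4 in NEB heads, and at a lowest, median and highest of 1.02, 1.95 and 9.79 in brains (log2 difference 6.66, SE 1.07, adjusted p = 0.000164, edgeR). Cpr97Ea lay at 127 and 161 CPM in SYS heads, at 2.01, 3.07 and 2.63 in NEB heads, and at 0.0928, 0.34 and 3.27 in brains (6.12, SE 1.42, adjusted p = 0.00222). The NEB heads of Cpr97Ea overlapped brain library 4, and with NEB heads alone its call was lost. Its neighbour Cpr97Eb lay at 215 and 216 CPM in SYS heads, at 14.4, 19.5 and 14.2 in NEB heads and at 0.51, 0.863 and 3.92 in brains (6.20, SE 1.01), and Cpr76Bd at 48.1 and 69.9, at 3.71, 5.07 and 3.77, and at 0.0388, 0.185 and 2.07 (5.66, SE 1.12). Further members called higher in heads were Cpr49Aa by 7.63, Cpr47Ea by 6.78, Cpr62Bc by 5.76, Cpr11B by 5.6, Cpr49Ab by 5.44, Cpr60D by 5.20, Cpr76Bb by 5.10, Cpr92F by 4.27, Cpr50Cb by 4.26, Cpr67B by 4.23 and Cpr47Ef by 4.16 on the log2 scale. Within the NEB experiment 25 members were called in this comparison (Cpr49Af, Cpr62Bb, Cpr92F and Cpr97Ea lost, Cpr76Ba gained), and within the SYS experiment 35.

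**Figure D2:**
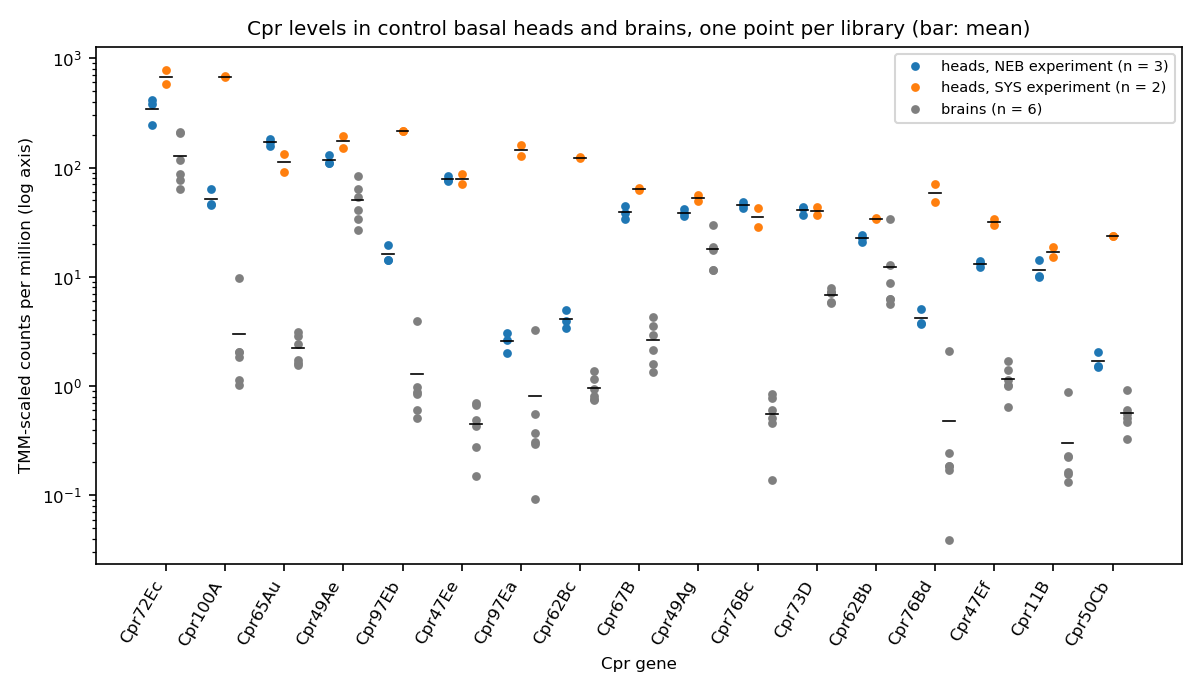
Levels of the 17 Cpr genes with at least 10 CPM on average in Control RNAi basal heads, in CPM on a logarithmic axis, with 1 point per library of NEB heads (n = 3), SYS heads (n = 2) and brains (n = 6) and a bar at each mean. Cpr47Ee sits at like levels in both head experiments, Cpr65Au is somewhat lower in SYS than in NEB heads, both lie far below in brains, Cpr100A and Cpr97Ea are far higher in SYS than in NEB heads, and Cpr72Ec and Cpr49Ae are the highest in brains.

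The remaining members called differed less between the tissues. Cpr72Ec, the corneal lens component, lay at 381, 411 and 243 CPM in NEB heads and 773 and 583 in SYS heads, and at a lowest, median and highest of 64.3, 103 and 209 in brains (log2 difference 1.92, SE 0.38, adjusted p = 0.00082, edgeR). Cpr49Ae lay at 110, 111 and 130 CPM in NEB heads and 196 and 151 in SYS heads, against 26.8, 46.9 and 84.4 in brains (1.47, SE 0.28, adjusted p = 0.000611). Neither gene overlapped between the tissues. The other lens component, Cpr66D, was higher in heads by 1.95, and Cpr62Ba by 1.91, Cpr49Af by 1.65, Cpr49Ag by 1.31 and Cpr51A by 1.26. The call of Cpr49Af was lost with NEB heads alone (adjusted p = 0.0526, edgeR) and with brain libraries 4 to 6 alone (adjusted p = 0.051), and without brain library 2, 3, 4, 5 or 6 the gene no longer passed the filter. Cpr73D varied little within each tissue, with 43.7, 42.3 and 37.1 CPM in NEB heads and 43.6 and 36.5 in SYS heads. In brains it had 5.77, 7.16 and 7.82 CPM (log2 difference 2.57, SE 0.10, adjusted p = 3.15e-09, edgeR), though its exons overlap those of Ogdh. Cpr62Bb differed least among the genes called higher (1.15, SE 0.45, adjusted p = 0.0395): its heads between 20.8 and 34.8 CPM overlapped brain library 4 at 34.1, and the call was lost on leaving out NEB pool 1, either SYS pool or brain library 1, 2, 3, 5 or 6. Cpr64Ad went the other way, with heads between 0.19 and 0.503 CPM and brains between 0.737 and 0.949 (fell by 1.43, SE 0.25, adjusted p = 0.000299).

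Levels of different genes were compared only per kilobase of exon. In NEB heads the level of Cpr65Au was 322.5 ± 21.8 CPM per kb (SD, n = 3), ahead of Cpr72Ec with 238.3 ± 61.6 and Cpr49Ae with 98.5 ± 9.79. The distance from Cpr65Au to Cpr72Ec was larger than the SD of either. In SYS heads Cpr100A stood at 490.9 ± 6.46 (SD, n = 2) and Cpr72Ec at 468.4 ± 92.7, which lie within their spread, ahead of Cpr65Au at 211.9 ± 54.3 and Cpr97Eb at 204.5. Brains ranked Cpr72Ec at 87.9 ± 45.2 (SD, n = 6), Cpr49Ae at 42.4 ± 17.9 and Cpr49Ag at 27.6 ± 10.3, and Cpr49Ae and Cpr49Ag lay within 1 SD of each other, by the larger SD. Cpr72Ec was among the leading members per kilobase in both head experiments and in brains.

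The difference between the 2 head experiments was tested after its values were seen, over all 20 input libraries with genotype and condition in the model. Of 37 members tested 25 were higher in SYS and 4 lower, and of all 10822 genes tested 73.4% were called, 35.5% as higher and 37.9% as lower in SYS. The median log2 difference was 0.94 over the members and -0.02 over all genes. The members over 8-fold higher in SYS numbered 11: Cpr49Ac, Cpr97Ea, Cpr64Aa, Cpr62Bc, Cpr11A, Cpr56F, Cpr76Bd, Cpr92F, Cpr97Eb, Cpr50Cb and Cpr100A. Cpr49Ac rose from 0.229, 0.312 and 0.254 CPM in the basal Control RNAi NEB pools to 26 and 16.5 in the SYS pools (6.10, SE 0.26), and Cpr97Ea was higher by 5.92 (SE 0.20, adjusted p = 1.38e-14, edgeR). Cpr62Bc rose from 3.39, 4.98 and 3.90 CPM to 123 and 124 (5.25, SE 0.23). Every SYS pool of these genes lay above every NEB pool.

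For other members the difference between the experiments was small, or lower in SYS. The fitted SYS minus NEB differences of Cpr47Ee (-0.07), Cpr49Aa (-0.20), Cpr51A (-0.01), Cpr66D (-0.09) and Cpr73D (-0.10) did not pass the test, although with library totals Cpr47Ee, Cpr49Aa and Cpr73D were called and Cpr49Ab and Cpr49Ae lost their calls, while Cpr65Au was lower in SYS (fell by 0.66, SE 0.09) and so was Cpr60D (fell by 1.59, SE 0.12). Genes of cuticle synthesis were higher in SYS heads beside the Cpr genes: the chitinase Cht5 by 5.15 (SE 0.12), kkv by 4.62 (SE 0.19), serp by 3.44 (SE 0.13), and the cuticle gene Ccp84Ac by 7.19 (SE 0.57). Of 29 tested genes of chitin metabolism 19 were higher and 8 lower, of 9 trachea and epidermis markers 7 were higher, of 12 muscle markers 11 were higher, and of 14 retina markers 2 were higher and 9 lower. The summed trachea and epidermis markers lay between 316 and 341 CPM in basal Control RNAi NEB heads and between 1139 and 1394 in the SYS heads. All 8 neuronal markers were higher in SYS too, with a median log2 difference of 0.80 beside 0.88 for the trachea and epidermis markers. Of 6 glial markers 4 were higher and 2 lower, and of 8 fat body markers 2 were higher and 4 lower. The part of any of these tissues in the difference between the experiments was not tested. TATAAA stood before 6 of the 11 members over 8-fold higher in SYS (54.5%), 12 of the 26 other members tested (46.2%) and 16 of the 33 not tested (48.5%), so the windows shown for Cpr100A, Cpr97Eb, Cpr62Bc and Cpr64Aa do not set these genes apart from other members.

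**Figure D3:**
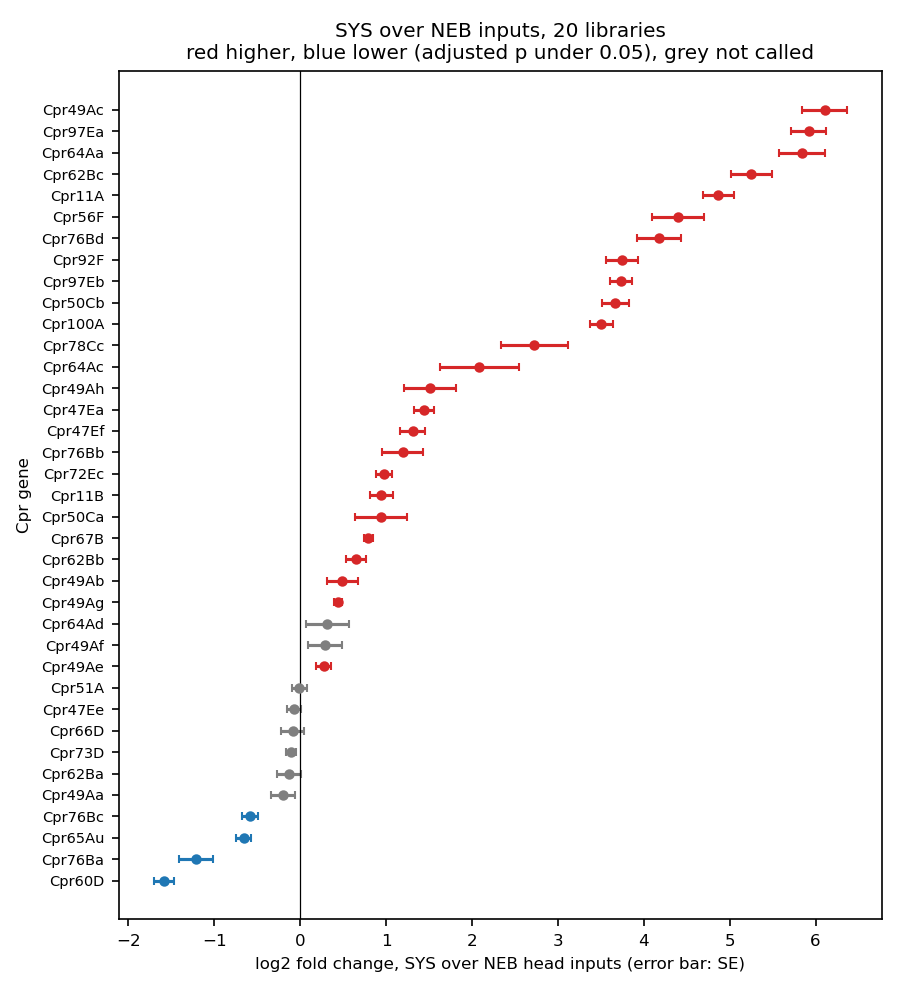
Log2 difference of SYS over NEB head inputs (horizontal axis) for each of the 37 Cpr genes tested (vertical axis, ordered by value), over 20 libraries, with SE as error bars and colours for genes higher in SYS, lower in SYS and not called. The 11 members from Cpr49Ac at 6.10 down to Cpr100A at 3.51 lie apart from the rest, and Cpr60D lies lowest at -1.59.

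Mettl3 RNAi changed a few Cpr genes in heads, in both directions. With the experiment (SYS or NEB) in the model, 8 of 29 members tested were called in basal heads, 4 higher and 4 lower, against 4.13% of all 10025 genes tested, 2.54% as higher and 1.59% as lower. Cpr67B lay at 44.1, 38.6 and 34.0 CPM in Control RNAi NEB heads and 77.2, 72.7 and 67.5 in Mettl3 RNAi NEB heads, and at 64.9 and 62.4 against 115.1 and 124 in SYS heads. Within each experiment its groups did not overlap (log2 difference 0.90, SE 0.07, adjusted p = 0.00011, edgeR), and leaving out any pool kept the call. Cpr49Ae lay at 110, 111 and 130 CPM in Control RNAi NEB heads and 203, 215 and 254 in Mettl3 RNAi NEB heads, and at 196 and 151 against 205 and 230 in SYS heads (0.69, SE 0.13, adjusted p = 0.0165). Its groups did not overlap either, but the difference was 0.33 within SYS, and the call was lost without Control RNAi NEB pool 1 (adjusted p = 0.0559) or 2 (adjusted p = 0.0534). Cpr47Ea was higher by 0.66 (SE 0.12, adjusted p = 0.0125) and Cpr49Af, a gene at or below 1.87 CPM in these heads, by 1.47 (SE 0.20, adjusted p = 0.00433).

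Lower members were Cpr11B, Cpr51A, Cpr49Aa (fell by 0.66, SE 0.15, adjusted p = 0.0338) and Cpr50Cb (fell by 0.53, SE 0.13, adjusted p = 0.0425). Cpr11B lay at 14.4, 9.97 and 10.1 CPM in Control RNAi NEB heads and 5.85, 5.88 and 7.20 in Mettl3 RNAi NEB heads, and at 15.1 and 18.6 against 10.0 and 11.1 in SYS heads (fell by 0.79, SE 0.12, adjusted p = 0.00697, edgeR). Cpr51A lay at 7.05, 7.52 and 7.0 CPM against 5.47, 5.6 and 4.72 in NEB heads, and at 8.50 and 7.70 against 4.58 and 3.60 in SYS heads (fell by 0.66, SE 0.12, adjusted p = 0.0125). Both genes were lower in every Mettl3 RNAi pool than in any Control RNAi pool of the same experiment. Cpr49Aa lost its call without Control RNAi NEB pool 1, 2 or 3 or SYS pool 1, or Mettl3 RNAi NEB pool 2 or 3 or SYS pool 1 (adjusted p between 0.0684 and 0.102). Cpr50Cb lost it without Control RNAi NEB pool 1 or either SYS pool, or Mettl3 RNAi NEB pool 2 or 3 or either SYS pool (adjusted p between 0.0587 and 0.117). With NEB heads alone Cpr49Aa, Cpr50Cb and Cpr51A were not called, and in the SYS experiment alone, with 2 pools per group, no member was.

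After HS, 7 of 29 members differed between Mettl3 RNAi and Control RNAi heads, 6 higher and 1 lower, against 2.8% of all 9965 genes, 1.99% as higher and 0.813% as lower. Cpr67B lay at 44.4, 46.5 and 43.0 CPM in Control RNAi and 98.8, 92.0 and 90.7 in Mettl3 RNAi NEB heads, and at 93.5 and 73.6 against 165 and 160 in SYS heads (1.03, SE 0.07, adjusted p = 6.3e-05, edgeR). Cpr49Ae was higher by 0.90 (SE 0.09, adjusted p = 0.000396), Cpr47Ea by 0.96 (SE 0.16, adjusted p = 0.0109), Cpr62Ba by 0.89 (SE 0.18, adjusted p = 0.0262), Cpr72Ec by 0.41 (SE 0.08, adjusted p = 0.0201) and Cpr49Ag by 0.38 (SE 0.06, adjusted p = 0.00682), and Cpr51A was again lower (fell by 0.63, SE 0.12, adjusted p = 0.0204). Cpr67B, Cpr49Ae, Cpr47Ea and Cpr51A were thus called in the same direction in basal and in HS heads, which are separate pools of flies. The call of Cpr51A after HS was lost without NEB pool 2 or 3 of either genotype (adjusted p between 0.0661 and 0.0748). That of Cpr62Ba was lost without Control RNAi NEB pool 1, 2 or 3, Mettl3 RNAi NEB pool 1 or 2 or SYS pool 2 (adjusted p between 0.0603 and 0.0891) and with NEB alone, and that of Cpr72Ec without Control RNAi NEB pool 2 or 3 or Mettl3 RNAi NEB pool 1 or 2 (adjusted p between 0.0547 and 0.0718). With the pool number as a block, which paired these samples, 15 members were called, 12 higher and 3 lower.

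In basal brains 3 of 20 members tested were higher in Mettl3 RNAi and none lower, against 2.19% of all 10042 genes, 1.58% as higher. Cpr49Ae had a lowest, median and highest of 26.8, 46.9 and 84.4 CPM in Control RNAi and 95.5, 116 and 134 in Mettl3 RNAi brains, with no overlap (log2 difference 1.19, SE 0.24, adjusted p = 0.0214, edgeR). Cpr47Ef had 0.649, 1.08 and 1.70 CPM in Control RNAi and 1.63, 3.0 and 4.58 in Mettl3 RNAi (1.46, SE 0.28, adjusted p = 0.0205), with 1 library of each genotype overlapping. Cpr49Af was higher by 1.94 (SE 0.45, adjusted p = 0.0449) at a highest level of 1.12 CPM. Without Mettl3 RNAi libraries 1 and 3, which stand apart, Cpr47Ef differed by 1.72 (adjusted p = 0.00769) and Cpr49Ae by 1.27 (adjusted p = 0.0467), and Cpr49Af lost its call (adjusted p = 0.106). Cpr67B differed by 1.56 (SE 0.38), with 1.35, 2.53 and 4.27 CPM against 3.73, 7.63 and 13.9, and missed the threshold (adjusted p = 0.0558), as did Cpr72Ec (1.36, SE 0.35, adjusted p = 0.0709). DESeq2 called 8 members in this comparison. With libraries 4 to 6 of each genotype alone no member was called.

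After HS, 4 of 22 members were higher in Mettl3 RNAi brains, against 6.32% of all 10054 genes, 3.6% as higher. Cpr62Ba lay between 0.155 and 0.621 CPM in Control RNAi, with a median of 0.319, and between 1.12 and 1.91 in Mettl3 RNAi, with a median of 1.48 (log2 difference 2.03, SE 0.30, adjusted p = 0.00151, edgeR). Cpr47Ef lay between 0.365 and 2.36 CPM in Control RNAi and between 2.7 and 5.02 in Mettl3 RNAi (1.68, SE 0.35, adjusted p = 0.0135), so that neither gene overlapped between genotypes. Cpr67B was higher by 1.74 (SE 0.47, adjusted p = 0.0442) and Cpr49Ae by 0.96 (SE 0.26, adjusted p = 0.0494), both with overlapping groups, and Cpr67B lost its call without the filter (adjusted p = 0.0531, edgeR), with the replicate block (adjusted p = 0.0518) and in libraries 1 to 3 alone (0.70, adjusted p = 0.274). Within libraries 1 to 3 of each genotype 10 members were called, and within libraries 4 to 6 none.

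**Figure D4:**
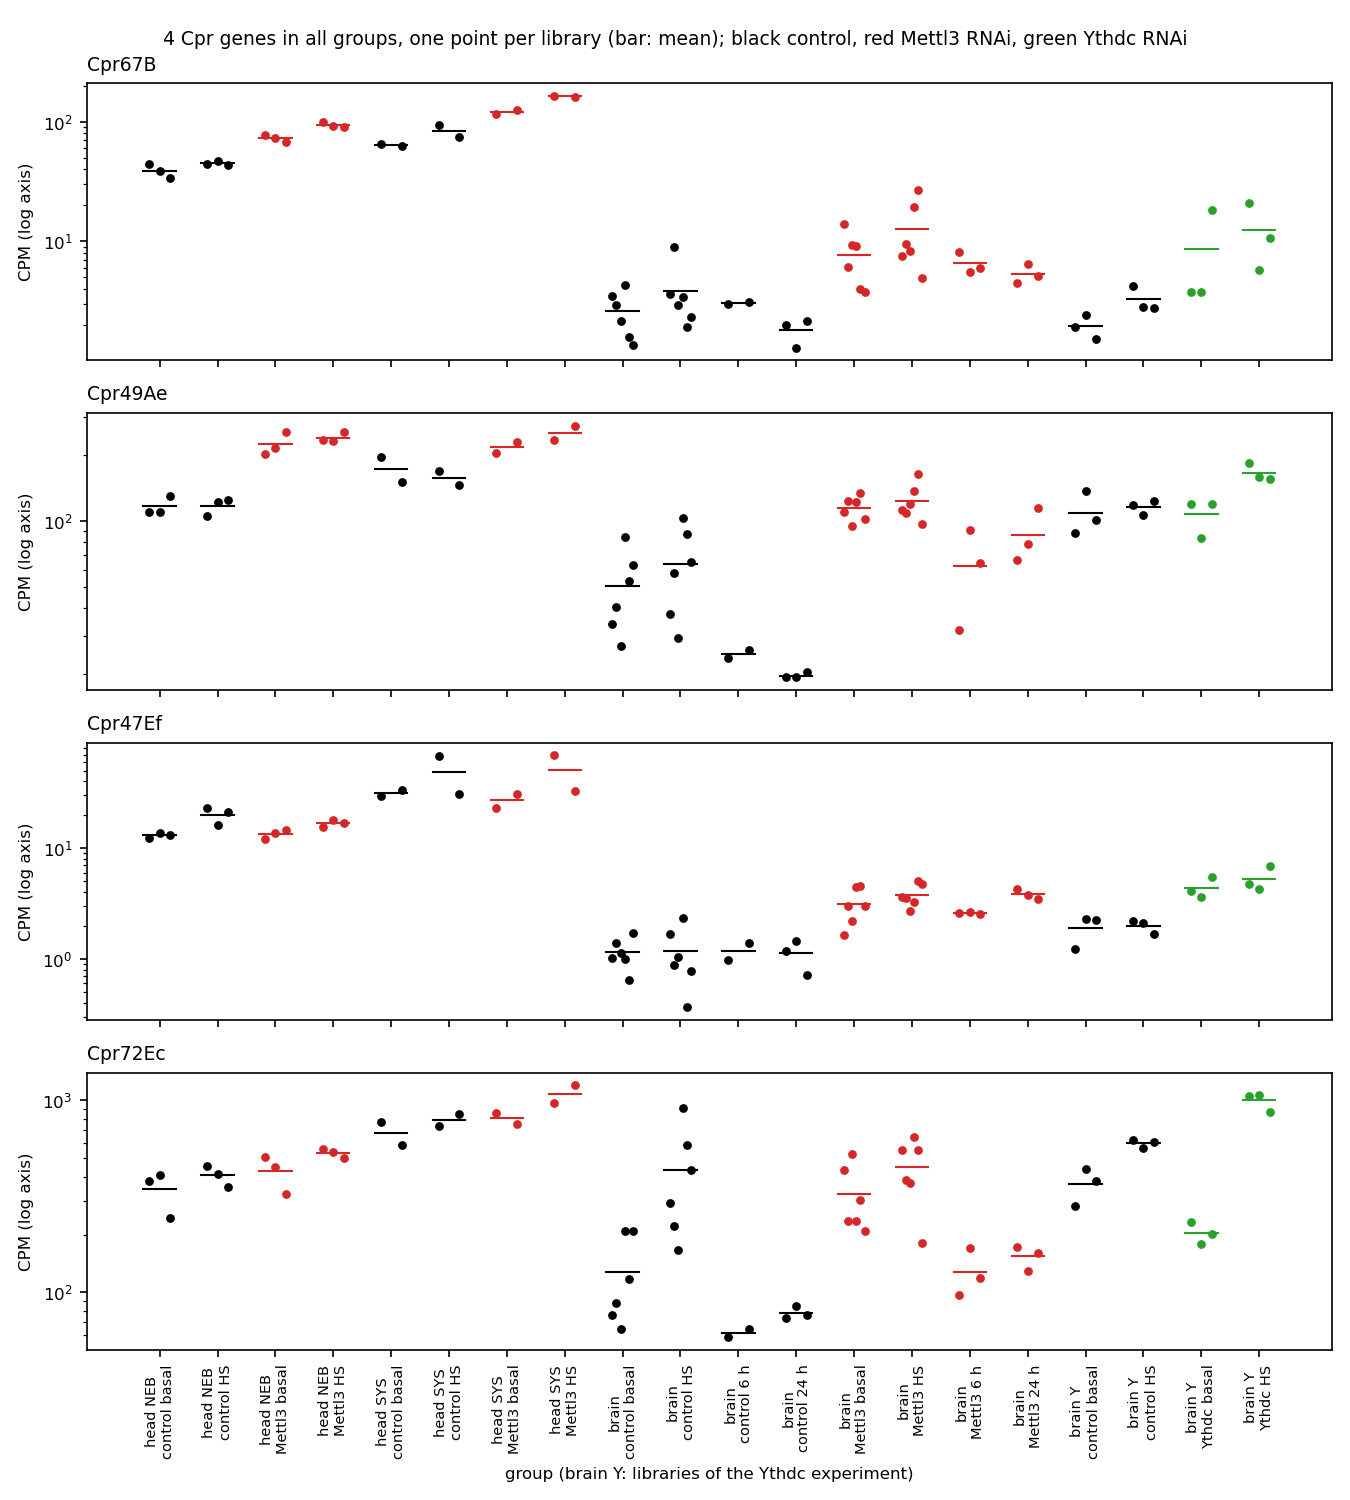
Levels of Cpr67B, Cpr49Ae, Cpr47Ef and Cpr72Ec in all head input and brain groups, in CPM on logarithmic axes, with 1 point per library and a bar at each group mean, black for Control, red for Mettl3 and green for Ythdc RNAi. Cpr67B and Cpr49Ae are higher in Mettl3 RNAi than in Control RNAi heads of the same experiment, and Cpr72Ec is higher in HS than in basal Control RNAi brains.

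HS moved few Cpr genes in heads. Of 31 members tested in Control RNAi heads 5 were higher after HS and none lower, against 35.8% of all 10011 genes, 16.2% as higher, so the share called was below that of all genes. Cpr64Ad was higher by 1.41 (SE 0.37, adjusted p = 0.0138, edgeR), with basal pools between 0.19 and 0.503 CPM and HS pools between 0.42 and 1.27, which overlapped. Cpr47Ef lay at 12.4, 13.8 and 13.2 CPM in basal and 22.9, 16.1 and 21.0 in HS NEB heads, and at 29.6 and 33.5 against 67.3 and 30.8 in SYS heads (0.63, SE 0.18, adjusted p = 0.022). Its NEB groups did not overlap and its SYS groups did, and the call was lost without basal NEB pool 1 (adjusted p = 0.0502) or HS NEB pool 1 (adjusted p = 0.0582). Cpr49Af (0.70), Cpr67B (0.28) and Cpr49Ag (0.17) were the other calls. Scaling by library totals moved the median of all genes by -0.25, turned Cpr49Ag to -0.08 and left Cpr67B at 0.03. It called 7 members, 1 higher and 6 lower, of which only Cpr64Ad was among these 5, and Cpr47Ea, Cpr47Ee, Cpr49Ae, Cpr51A, Cpr65Au and Cpr73D were the others. The smaller calls rested on single pools. Cpr49Af lost its call without basal NEB pool 1 or 3, HS NEB pool 3 or any of the 4 SYS pools, Cpr67B without basal NEB pool 2 or 3, either basal SYS pool, HS NEB pool 1 or 2 or HS SYS pool 1, and Cpr49Ag without basal NEB pool 2 or 3, basal SYS pool 1, any HS NEB pool or HS SYS pool 2, and also with the pool number as a block. With NEB alone Cpr64Ad, Cpr49Af and Cpr67B were not called.

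In Mettl3 RNAi heads 9 of 30 members were higher after HS and none lower, against 40.6% of all 10014 genes, 19% as higher. Cpr67B was higher by 0.41 (SE 0.06, adjusted p = 0.000508, edgeR) and Cpr64Ad by 1.14 (SE 0.30, adjusted p = 0.0115), and the others were Cpr92F, Cpr62Bc, Cpr97Ea, Cpr47Ef, Cpr97Eb, Cpr72Ec and Cpr49Ag. With the pool number as a block Cpr47Ef and Cpr62Bc lost their calls and Cpr73D and Cpr76Bb gained one. With library totals 5 members were called, 2 higher and 3 lower, and 7 of the 9 lost their calls. Leaving out each pool in turn, Cpr67B and Cpr64Ad kept theirs throughout, and each of the other 7 lost it without at least 1 pool. The SYS pools of one group differed widely for the genes that were high in SYS: Cpr97Ea lay at 320 and 104 CPM in the 2 HS Control RNAi pools and at 291 and 158 in the 2 HS Mettl3 RNAi pools, and Cpr62Bc at 301 and 75.2 and at 312 and 128. The HS change itself differed between genotypes for none of 35 members by edgeR (0% of all 10405 genes, 1 member at an unadjusted p under 0.05) and none by DESeq2.

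In Control RNAi brains 3 of 20 members were higher after HS and none lower, against 48.9% of all 10049 genes, 19.7% as higher. Cpr72Ec rose from a lowest, median and highest of 64.3, 103 and 209 CPM to 165, 365 and 908, with overlapping ranges (log2 difference 1.73, SE 0.44, adjusted p = 0.00545, edgeR). The call held under every alternative run, with values between 1.33 and 1.79. Retina markers moved with it: 9 of 14 were called higher and none lower, their summed level went from between 30780 and 49891 CPM to between 47569 and 92679, and ninaE reached between 21661 and 41902 CPM, while Crys lay between 0.649 and 11.3 CPM before and between 1.30 and 38.5 after HS. Neuronal and glial markers moved as well: 7 of 8 and 5 of 6 were called higher, with 0 and 1 lower. Their median log2 changes were 0.43 and 0.35, beside 0.48 for the retina markers. The lens component Cpr66D was not called (-0.05, SE 0.40, adjusted p = 0.925, edgeR). The part of eye tissue in the change of Cpr72Ec was not tested. Cpr50Ca (1.10, SE 0.39, adjusted p = 0.0337) and Cpr73D (0.32, SE 0.11, adjusted p = 0.0307) were also called, and Cpr73D turned to -0.08 with library totals, which moved the median of all genes by -0.40. Cpr50Ca lost its call with library totals (adjusted p = 0.139, edgeR), without the filter and in libraries 4 to 6, and no longer passed the filter in libraries 1 to 3 or without library 4 of both groups. Cpr73D lost its call without the filter and in libraries 4 to 6. In Mettl3 RNAi brains edgeR called none of 21 members (46.5% of all genes, 3 members at an unadjusted p under 0.05) and DESeq2 called 3. Without Mettl3 RNAi basal libraries 1 and 3, Cpr72Ec was called there. The difference in HS change between the genotypes was not called for any of 22 members by edgeR or DESeq2 (0% of all genes, 3 at an unadjusted p under 0.05), with Cpr72Ec at -1.30 (SE 0.55, adjusted p = 0.787). Between tissues, the HS change of Control RNAi heads and brains differed for none of 32 members by edgeR or DESeq2 (4.64% of all genes, 3 at an unadjusted p under 0.05), with Cpr72Ec at -1.50 as head minus brain (SE 0.52, adjusted p = 0.115).

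During recovery of Control RNAi brains, 1 of 19 members was called at 6 h against basal libraries 1 to 3 (6.81% of all genes, 3.86% as higher) and none of 17 at 24 h by edgeR (0.235% of all genes, 3 members at an unadjusted p under 0.05, 1 by DESeq2). Cpr50Ca lay at 0.139, 0.233 and 0.423 CPM in basal brains, at 1.61 and 1.67 at 6 h, and at 0.379, 0.948 and 0.446 at 24 h (6 h against basal 2.64, SE 0.42, adjusted p = 0.0159, edgeR). The 6 h libraries held 43 and 36 reads of the gene, and the call was lost without basal library 1 (adjusted p = 0.0592) or 6 h library 1 (adjusted p = 0.112). Cpr72Ec was back in the basal range, at 58.3 and 64.4 CPM at 6 h and 73.6, 84.4 and 76.7 at 24 h, beside 76.5, 87.9 and 64.3 in basal libraries 1 to 3. In Mettl3 RNAi brains none of 22 members at 6 h and none of 19 at 24 h was called by edgeR (2.04% and 0% of all genes, 10 and 11 members at an unadjusted p under 0.05), while DESeq2 called 9 and 7. Basal libraries 1 and 3 stand apart in that comparison, and leaving out basal library 2 raised the edgeR counts to 12 and 14.

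Cpr72Ec, Cpr47Ef and Cpr49Ae were higher in Ythdc RNAi than in Control RNAi brains after HS. In basal brains edgeR called none of 24 members (4.05% of all genes, 11 members at an unadjusted p under 0.05) and DESeq2 called 9. After HS 3 of 24 members were higher, against 5.31% of all 10245 genes, 2.45% as higher. Cpr72Ec lay at 624, 566 and 608 CPM in Control RNAi and at 1059, 1072 and 867 in Ythdc RNAi after HS (log2 difference 0.73, SE 0.09, adjusted p = 0.00979, edgeR), with no overlap, and the call held on leaving out any library. In basal brains its order was the other way, at 283, 439 and 382 CPM against 232, 178 and 201 (-0.84, SE 0.18, adjusted p = 0.0598). Cpr47Ef lay at 2.22, 2.10 and 1.68 CPM in Control RNAi and 4.78, 4.26 and 6.84 in Ythdc RNAi after HS (1.40, SE 0.21, adjusted p = 0.0192), and Cpr49Ae at 118, 107 and 124 against 185, 159 and 156 (0.51, SE 0.09, adjusted p = 0.0255). Neither overlapped, but Cpr47Ef lost its call without Control RNAi library 8 or 9 or Ythdc RNAi library 1 (adjusted p between 0.0513 and 0.074), and Cpr49Ae without Control RNAi library 7 or 8 or Ythdc RNAi library 1 or 2 (adjusted p between 0.0579 and 0.0802). Cpr67B, higher in Mettl3 RNAi, lay at 4.24, 2.82 and 2.74 CPM in Control RNAi and 20.7, 5.75 and 10.7 in Ythdc RNAi after HS and missed the threshold (1.94, SE 0.46, adjusted p = 0.0569).

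The HS change was larger for Cpr72Ec in Ythdc RNAi. In Control RNAi brains of this experiment 1 of 25 members rose with HS (18.7% of all genes, 5.22% as higher), Cpr72Ec by 0.67 (SE 0.16, adjusted p = 0.031, edgeR), a call that was lost without Control RNAi basal library 9 or HS library 7, 8 or 9 (adjusted p between 0.0728 and 0.113). In Ythdc RNAi brains 7 of 21 members rose (58.6% of all genes, 25.8% as higher): Cpr72Ec by 2.21 (SE 0.12, adjusted p = 6.05e-05), Cpr62Bc by 1.89, Cpr100A by 1.53, Cpr97Eb by 1.38, Cpr62Ba by 1.10, Cpr49Ae by 0.55 and Cpr73D by 0.29, of which Cpr73D turned to -0.12 with library totals. Cpr62Bc lost its call without basal library 1 or 3 or HS library 2, Cpr49Ae without HS library 1, and Cpr73D without basal library 2 or 3 or any HS library (adjusted p between 0.0547 and 0.108, edgeR). Tested as a difference of HS changes, Cpr72Ec was the only one of 26 members called (1.57, SE 0.21, adjusted p = 0.00988, 0.299% of all 10716 genes, 0.131% as higher), and DESeq2 called 3. Cpr100A lay at 4.17, 3.63 and 3.60 CPM in basal and 11.3, 16.4 and 7.12 in HS Ythdc RNAi brains, beside 6.34, 15.9 and 13.7 and 7.53, 4.19 and 10.8 in Control RNAi. Crys, another lens gene, lay at 6.6, 9.34 and 7.51 CPM in basal and 37.3, 24.5 and 16.4 in HS Ythdc RNAi brains. The lens component Cpr66D was not called there (0.56, SE 0.44, adjusted p = 0.311, edgeR), nor in the difference of HS changes (0.53, SE 0.50, adjusted p = 0.597). With HS, 18 of 29 genes of chitin metabolism and 4 of 8 trachea and epidermis markers rose in Ythdc RNAi brains. Of 14 retina markers 8 rose in Ythdc RNAi brains and none fell, with a summed level between 34421 and 54065 CPM in basal and between 61264 and 69196 in HS brains, while in Control RNAi 1 of 14 was higher, with a summed level between 46854 and 51618 and between 61790 and 72610 CPM. Neuronal and glial markers rose in Ythdc RNAi brains as well: 7 of 8 and 5 of 6 were called higher, with 0 and 1 lower. Of 11 genes of cuticle tanning 8 rose there and 1 fell. In Control RNAi 1 of 8 neuronal markers was higher and none of 6 glial markers was called. The share of eye, trachea and epidermis in each dissection was not tested.

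m6A-IP recovered the RNA of some Cpr genes far more than that of others. IP over input was fitted on the SYS pools with the pool as a block, which left few degrees of freedom per gene, so the spread came mainly from all genes together and the calls were many. In basal Control RNAi heads 15 of 35 members were higher in IP and 10 lower, against 79.1% of all 10220 genes, 37.4% and 41.7% by direction, and after HS 12 of 34 were higher and 9 lower, against 76.6%, 38.3% in either direction. The log2 IP over input ratio of Cpr47Ef was 2.73 and 2.68 in the basal Control RNAi SYS pools and 4.91, 4.31 and 4.64 in the NEB pools, the highest of the 27 members with a mean of at least 30 reads. Cpr72Ec had 1.52 and 1.45 with SYS and 2.82, 2.53 and 3.12 with NEB, Cpr73D 1.28 and 1.29 with SYS and 2.55, 2.19 and 2.36 with NEB, and Cpr50Cb 1.20 and 1.03 with SYS and 2.78, 2.50 and 2.75 with NEB. At the other end Cpr62Bb had -1.07 and -1.16 with SYS and -1.81, -1.88 and -2.88 with NEB, and Cpr11B -1.20 and -1.04 with SYS and -1.82, -1.76 and -2.01 with NEB. For these 6 genes both antibodies gave the same sign in every pool. Cpr51A and Cpr97Eb changed sign between antibodies, with fitted values of 0.66 and 0.28 in SYS and -0.54 (adjusted p = 0.0144, edgeR) and -0.59 (adjusted p = 0.00149) in NEB.

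Mettl3 RNAi did not detectably change the enrichment of any member. The difference in IP over input between Mettl3 RNAi and Control RNAi was called by edgeR for none of 37 members in basal heads (10.4% of all 10397 genes, 3 members at an unadjusted p under 0.05) and for none of 34 after HS (12.2% of all genes, 3 at an unadjusted p under 0.05), and DESeq2 called none in either. The 2 SYS IP libraries of basal Mettl3 RNAi heads carry an antibody label of none, against their titles, and were grouped by title. With NEB in place of SYS no member was called in basal or HS heads. Cpr47Ef stood at 2.78 and 2.66 in the Mettl3 RNAi SYS pools and at 4.74, 4.84 and 5.11 in the NEB pools, beside the Control RNAi values above, so its genotypes overlapped in both experiments. Of the members higher in Mettl3 RNAi heads, Cpr67B had IP over input of 0.30 and 0.18 in the Control RNAi SYS pools and 0.65, 0.79 and 0.88 in the NEB pools. Whole transcripts were counted here, so a change at one site of a transcript could be missed.

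**Figure D5:**
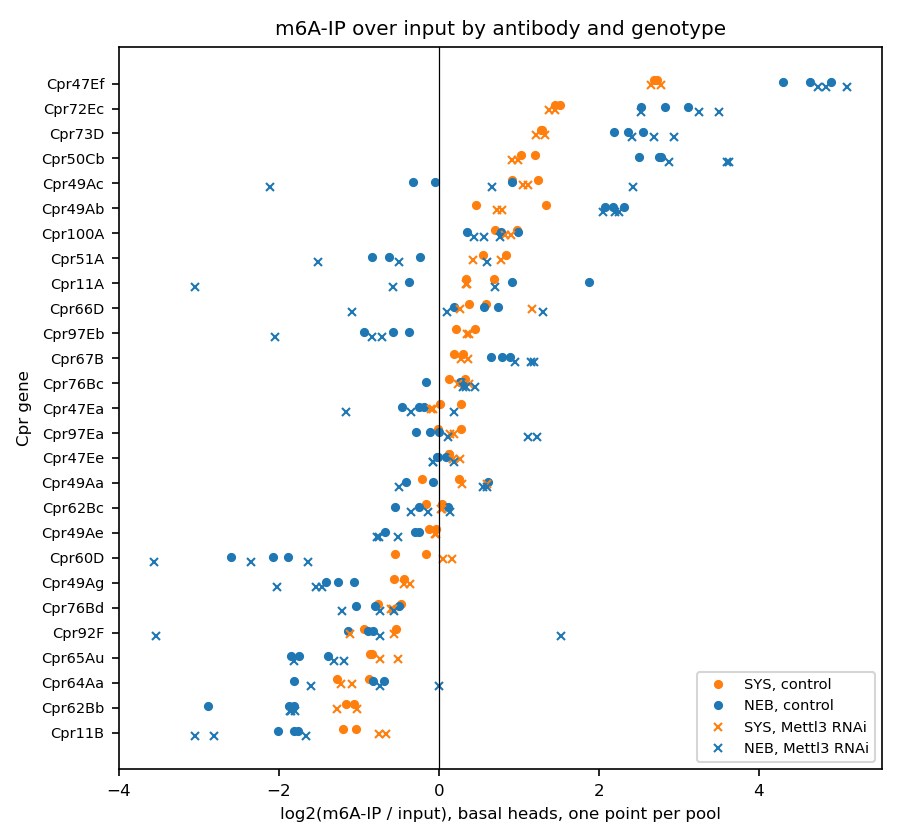
Log2 ratio of m6A-IP over input in basal heads (horizontal axis) for the 27 Cpr genes with a mean of at least 30 reads (vertical axis, ordered by SYS value), with 1 mark per pool, orange for SYS and blue for NEB, circles for Control RNAi and crosses for Mettl3 RNAi. Cpr47Ef and Cpr72Ec lie at the enriched end and Cpr62Bb and Cpr11B at the depleted end for both antibodies, while the Control RNAi pools of Cpr51A and Cpr97Eb lie above 0 for SYS and below 0 for NEB.

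Other families of cuticle formation give the setting of these changes. In basal Control RNAi samples 9 of 28 further genes with the same consensus were tested between head and brain, and 8 were higher in heads, with Lcp65Ag2 at 8.96 (SE 0.61) and Lcp65Ac at 8.19. Of 4 tested tweedle genes, another family of cuticle proteins, 3 were higher in heads and 1 lower. Of 29 genes of chitin metabolism 20 were higher and 2 lower, with serp at 5.91 and kkv at 5.34 (SE 1.23), of 11 genes of cuticle tanning 6 were higher and 4 lower, and of 9 zona pellucida domain genes, which link epidermis and cuticle, 6 were higher and 2 lower. Most of all genes tested were called in this comparison, with the shares by direction given above, so these counts are descriptions. A gene of these lists can also pass the filter through heads alone. Between Mettl3 RNAi and Control RNAi basal heads 2 of 11 further consensus genes were higher and 1 lower, 1 of 4 tweedle genes was higher, none of 28 genes of chitin metabolism was called, and none of the 3 corneal lens genes was called by edgeR. In basal brains no gene of these lists was called between the genotypes by edgeR. The shares of all genes called between the genotypes are given above with the Cpr genes.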

How the data were processed

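The authors trimmed reads with Trim Galore, aligned them to the fly genome (dm6) with STAR 2.7.3a and counted reads per gene, and the deposited table holds these whole-number counts, not normalized, for 87 libraries (20 head inputs, 20 head IPs and 47 brains). Strand use in counting is not given in the sources used here. Head IP libraries held between 1318964 and 19583593 counts. No column was left out, and the lowest chi-square per gene between libraries of one group was 3.12, so none differed by as little as counting noise.

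The members and the gene lists were chosen with earlier results of these data known. Each of 29 comparisons was tested with the quasi-likelihood test of edgeR 4.0.16 in R 4.3.3 on TMM-scaled counts, with a filter on low counts (minimum count 10, minimum total 15) and Benjamini-Hochberg adjustment over all genes tested, called at an adjusted p under 0.05, and 3 of the comparisons were added after values had been seen. DESeq2 1.42.0 served as an alternative. Printed levels are TMM-scaled counts-per-million (CPM) over the 67 libraries without IP, and IP over input is a log2 ratio with a prior count of 1. SE is the absolute log2 difference over the square root of the F statistic. Comparisons of genotype or HS within heads, and of the HS change between tissues, had the experiment as a covariate. Head against brain had no covariate, so its p-values take no account of the experiment. IP comparisons had the pool as a block, since IP and input share a pool. Recovery was compared with basal libraries 1 to 3. Same-numbered libraries deviated together in every pair (correlation over 0.1) for HS in Mettl3 RNAi heads (0.141 to 0.2), for Mettl3 RNAi against Control RNAi in HS heads (0.104 to 0.657) and for HS in Control RNAi brains (0.279 to 0.574). Within the last, the correlations were 0.00538 to 0.0632 among libraries 1 to 3, so the pairing there follows the 2 sets of libraries that differ in depth. Named genes were the members with a mean of at least 10 CPM in Control RNAi basal heads, the 5 members highest in Control RNAi basal brains, up to 30 called members per comparison by size of change, and up to 4 examples per list. The study describes its repeats as progeny of separate crosses, while the labels tie no single library to a cross, and p-values measure the spread between these pools. The test was checked on simulated data. Gene positions, exons and overlaps with other genes came from the Ensembl annotation of the fly genome. The windows before the gene start and protein identity came from the RefSeq annotation, in which all 70 members matched. The genes dp and Retinin were not analysed here.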

Additional observations from a re-analysis of the deposited data

Results flagged for a closer look

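Within the brain groups of 6 libraries, 17 members were searched for a library far from the other 5 in 4 groups each. Of 68 such sets 14 held one. The cut was set to mark about 1 in 20 by chance. The members of a group share its libraries, so the sets are not independent and the count is a description. Control RNAi basal library 4 was high for 5 members: Cpr100A at 9.79 CPM beside a next value of 2.05, Cpr62Bb at 34.1 beside 12.7, Cpr76Bd at 2.07 beside 0.243, Cpr97Ea at 3.27 beside 0.552 and Cpr97Eb at 3.92 beside 0.97. The chitin synthase kkv was at 5.15 CPM in that library and between 0.255 and 0.776 in the other 5. Control RNAi basal library 3 was high for Cpr11B, at 0.888 CPM beside 0.231. Among Control RNAi HS brains, library 4 was high for Cpr49Ag at 51.7 CPM beside 23.8 and for Cpr62Bb at 42.7 beside 18.9, library 6 for Cpr11B at 1.14 beside 0.309, and library 2 for Cpr67B at 8.86 beside 3.61. Among Mettl3 RNAi brains, library 1 was high for Cpr47Ee, at 2.66 CPM beside 0.74 in basal and 3.12 beside 0.883 in HS, and HS library 2 was low for Cpr50Cb at 0.167 beside 0.593 and high for Cpr97Ea at 4.85 beside 1.75.

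The HS change of Cpr72Ec differed between Ythdc RNAi and Control RNAi brains by 1.57 on the log2 scale (SE 0.21, adjusted p = 0.00988 by edgeR's test of the difference of changes), with every Ythdc RNAi HS library higher than every Control RNAi HS library and every Ythdc RNAi basal library lower than every Control RNAi basal library.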

How the results depend on the processing

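Depth limits the members near zero: 33 of 70 stayed below 0.5 CPM in every group, and the filter on low counts can leave such members untested. Without the filter, basal Control RNAi head against brain also called Cpr35B, Cpr47Ec, Cpr66Cb and Cpr78E, which had few reads in heads. The head against brain comparison called between 26 and 29 members on leaving out each library (main 28) in basal Control RNAi, 26 to 27 in HS Control RNAi, 24 to 29 in basal Mettl3 RNAi and 26 to 28 in HS Mettl3 RNAi. Basal Control RNAi gave 39 without the filter, and basal Mettl3 RNAi (27) gave 20 with NEB heads alone and 21 with brain libraries 1 to 3. In basal Mettl3 RNAi, Cpr62Bc turned to -0.69 with NEB heads alone.

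Other counts moved. For HS in Control RNAi heads (5 called) the SYS experiment alone gave 0, a model without the experiment 1, and leaving out each pool 3 to 8. For HS in Mettl3 RNAi heads (9) library totals gave 5, 2 higher and 3 lower, NEB alone 4, SYS alone 0, no experiment term 0, and leaving out each pool 3 to 11. Mettl3 RNAi against Control RNAi in basal heads (8) gave 5 in NEB alone, 0 in SYS alone, 1 without the experiment, 14 with the replicate block and 5 to 8 without each pool, and in HS heads (7) 0 in SYS alone, 0 without the experiment, 15 with the block and 4 to 10 without each pool. HS in Control RNAi brains (3) gave 5 by DESeq2, 1 with library totals, 1 in libraries 4 to 6 and 4 with the block. HS in Mettl3 RNAi brains (0) gave 3 by DESeq2, 3 with library totals, 3 without the filter, 1 in libraries 1 to 3, and 1 without basal libraries 1 and 3, an alternative chosen after seeing the data. Mettl3 RNAi against Control RNAi in basal brains (3) gave 8 by DESeq2, 5 with a term for the set of libraries and 0 in libraries 4 to 6, and in HS brains (4) 2 without the filter, 10 in libraries 1 to 3 and 0 in libraries 4 to 6. At 6 h in Control RNAi (1) DESeq2 gave 2, library totals 2, no filter 2, the block 5 and leaving out each library 0 to 2. The titles number these 6 h libraries 1 and 2 and the study's own list 2 and 3, so this block may pair the wrong libraries. At 24 h (0) DESeq2 gave 1, no filter 1 and leaving out each library 0 to 1. In Mettl3 RNAi at 6 h (0) DESeq2 gave 9, library totals 1, all 6 basal libraries 1, basal libraries 2, 4, 5 and 6, chosen after seeing the data, 5, and leaving out each library 0 to 12. At 24 h (0) DESeq2 gave 7 and leaving out each library 0 to 14. Ythdc RNAi against Control RNAi in basal brains (0) gave 9 by DESeq2, 2 without the filter and 0 to 5 without each library, and in HS brains (3) 1 to 3. HS in the Control RNAi brains of that experiment (1) gave 2 by DESeq2, 0 with the block and 0 to 2 without each library, HS in Ythdc RNAi (7) 5 to 8, and the difference of the HS changes (1) 3 by DESeq2. m6A-IP against input in basal heads (25) gave 11 with no replicate block, 20 with NEB pools in place of SYS and 17 to 20 with NEB on leaving out each pool, and in HS heads (21) 6, 18 and 16 to 18. The genotype difference in enrichment (0) gave 1 with library totals in basal and 2 in HS heads, 0 in both with NEB in place of SYS, and with NEB on leaving out each pool 0 to 2 in basal and 0 in HS heads.

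With library totals, Cpr49Ag turned to -0.082 for HS in Control RNAi heads, and Cpr73D to -0.076 for HS in Control RNAi brains and -0.12 in Ythdc RNAi brains. IP over input with library totals turned Cpr67B to -0.042 in basal and -0.10 in HS heads, Cpr76Bc to -0.044 in basal and -0.043 in HS heads, and Cpr97Eb to -0.069 in HS heads. With NEB in place of SYS, Cpr51A turned to -0.54 in basal heads (-0.73 to -0.38 without each pool) and -0.51 in HS heads (-1.15, -0.37 and -0.25), Cpr97Eb to -0.59 (-0.72 to -0.48) and -0.72 (-0.99, -0.83 and -0.45), and Cpr76Bc to -0.034 in HS heads without NEB pool 1. The cause of these changes was not tested. In the comparisons whose numbers did not pair the samples, the block changed no count beyond 1.5 times other than those given here.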
